A study of Mus musculus with 6 samples.

Results

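The genes described here are 46 members of the tumor necrosis factor (TNF), NF-kB and MyD88 signalling pathways, chosen by name as receptors, adaptors, kinases, transcription factors, inhibitors and well-known output genes of these pathways. They were chosen with earlier results of these data known, so their counts beside the share of all genes are descriptions and not a test. All 46 were found by symbol among the 54648 gene symbols of the deposited table and had counts, and 44 of them passed the filter on low counts and were tested. RNA-seq was carried out on intraperitoneal macrophages of wild type (WT) and FOXO3 KO mice, with 3 libraries in each group. All mice were of strain C57BL/6, were 6 to 8 weeks old, were kept on a standard chow diet and had, per the study's methods, been injected with thioglycollate, an irritant that draws monocytes into the abdominal cavity, where they mature into macrophages. By those methods the mice were of both sexes, littermates were genotyped as homozygous, and the harvested peritoneal cells were mostly, not only, macrophages. No Cre or promoter that would restrict the loss of FOXO3 to macrophages is named. The comparison asks how these genes are expressed in cells that lack FOXO3, a transcription factor restrained by insulin signalling. The labels do not say which libraries came from separate mice, so p-values measure only the spread between these libraries.

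TNF and bacterial products reach NF-kB along converging routes. TNF binds the receptors Tnfrsf1a and Tnfrsf1b, which gather Traf2 and Birc3, with Ripk1 at Tnfrsf1a. Toll-like receptors instead signal through the adaptor Myd88 and the Irak kinases to Traf6, or through Ticam1 (TRIF). Both routes activate the IkB kinase (IKK) complex of Chuk, Ikbkb and Ikbkg, which marks IkB proteins such as Nfkbia for destruction, so that dimers of Rela, Rel, Relb, Nfkb1 and Nfkb2 enter the nucleus. There they induce cytokines, surface molecules and their own inhibitors, among them Nfkbia and Tnfaip3 (A20). In macrophages much of the cytokine output is kept low until a stimulus arrives.

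Promoter sequences were searched for the motif that NF-kB recognises. In the RefSeq promoter table (GRCm38.p6), 34 of the 46 members had 43 windows of 250 bases upstream of a start. The 10-base kappa-B consensus, read on both strands, was found in 11 of the 43 windows, which belong to 9 genes, and in 3.90% of all 32851 windows. The shorter pattern GGAANTTCC, which reads the same on both strands, was found in 4 of the 43 and in 0.813% of all windows. The consensus is also present in 3 of these 4 windows, and the matches overlap in 2. This second pattern, and the genes shown, were chosen after values were seen. Stretches around a match are shown for Il6, Nfkbia, Rel and Tnip1, which hold the consensus, and for Icam1, which holds the shorter pattern only, because these 5 genes represent the cytokines, inhibitors, subunits and surface molecules compared in the following. Sequences are on the strand of the gene, from 5′ to 3′, with the matches in capitals, and overlapping matches are joined.
Il6: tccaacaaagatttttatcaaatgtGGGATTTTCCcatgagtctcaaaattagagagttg
Nfkbia: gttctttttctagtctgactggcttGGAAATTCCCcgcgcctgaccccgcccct
Rel: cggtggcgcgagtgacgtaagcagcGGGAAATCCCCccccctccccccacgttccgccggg
Tnip1: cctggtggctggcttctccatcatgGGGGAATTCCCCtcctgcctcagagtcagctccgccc
Icam1: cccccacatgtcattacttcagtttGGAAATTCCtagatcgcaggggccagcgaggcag

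These stretches lie at chr5:30013045-30013104 on the plus strand for Il6, chr12:55492648-55492701 on the minus strand for Nfkbia, chr11:23771026-23771086 on the minus strand for Rel, chr11:54962962-54963023 on the minus strand for Tnip1 and chr9:21015762-21015820 on the plus strand for Icam1. None of them overlaps an exon of the GENCODE M21 annotation of GRCm38. The first capital stands 44 bases before the RefSeq start of Il6, 29 before that of Nfkbia, 92 before that of Rel, 58 before that of Tnip1 and 153 before that of Icam1. The FoxO core GTAAACA, read on both strands, was in 0 of the 43 members' windows and in 3.17% of all windows. A match is a description of the letters in the window and not a site that was measured to be bound.

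Foxo3, the gene that was knocked out, stood at 117 CPM, 107 CPM and 73.1 CPM across WT 1 to 3, against 4.71 CPM, 104 CPM and 4.29 CPM across FOXO3 KO 1 to 3. FOXO3 KO 1 and 3 thus had little Foxo3 mRNA, while the library labelled FOXO3 KO 2 was within the WT range. The counts of members are therefore given over all 6 libraries as labelled and again over 5, without FOXO3 KO 2, and so are the fold changes of single members where the 5 libraries turn the sign or move the value by over 1.5 times. WT 3 also stood apart: with genes as points (not replicates of each other), Pearson's r between its log2 expression and that of each other library was between 0.917 and 0.951, against 0.980 or more for every pair without it. Xist RNA was at 871 CPM in WT 3 and 1129.7 CPM in FOXO3 KO 3, and under 1 CPM in the other 4, a split that both groups share. Values are CPM, meaning counts divided by the TMM-adjusted size of their library, with library totals between 28083393 and 36424117 counts.

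Over all 6 libraries, the signalling machinery mostly differed by less than 1.2-fold between the groups, and the larger differences were among cytokines, surface molecules and other induced genes. Tnf, Tnfsf9, Icam1, Clec4e and Nos2 were higher in every FOXO3 KO library than in any WT library, by 1.28-fold for Icam1 to 3.94-fold for Nos2, whose FOXO3 KO libraries varied most. Nos2 was at 2.04-fold without FOXO3 KO 2. These are the 5 members at an unadjusted p under 0.05, counted below, so their lack of overlap adds little to it. In all, 9 of the 44 tested members and 7.00% of all genes tested lay above every WT library in this way. No member passed a false discovery rate (FDR) of 0.05 by edgeR's quasi-likelihood test over all genes tested. By that test 0% of the 15608 genes passed, and the smallest adjusted p among the members was 0.714. At an unadjusted p under 0.05, 5 of the 44 tested members were higher in FOXO3 KO and 0 were lower, where 4.04% of all genes tested were higher and 1.65% lower by the same rule. DESeq2 also called 0 members at an FDR of 0.05, against 0.829% of the genes it could adjust. The count of 5 became 9 without WT 3, where 6.15% of all genes tested were higher by this rule, 3 without FOXO3 KO 3, where 2.51% were, and 2 (Tnf and Icam1) without FOXO3 KO 2. In those 5 libraries without FOXO3 KO 2, 3.05% of all genes were higher and 1.26% lower at an unadjusted p under 0.05, edgeR called 0% at the FDR, and DESeq2 called 0 members and 0.703% of genes. Leaving out a second library moved that count of 2 to between 0 and 9. It was 0 without WT 1 and without FOXO3 KO 3, where 2.21% and 0.654% of all genes tested were higher, 1 without WT 2 and without FOXO3 KO 1 (2.29% and 1.91%), and 9 without WT 3 (5.49%). In an added analysis without WT 3, chosen after the data were seen, DESeq2 called 3 members (Clec4e, Socs3 and Icam1) at an FDR of 0.05, against 1.25% of the genes it could adjust, and edgeR called 0. WT 3 was the highest WT library for each of these 3. On simulated data DESeq2 made more false calls than its FDR allows. Leaving WT 3 out also leaves no WT library high in Xist, while FOXO3 KO 3 is. With FOXO3 KO 2 left out as well, DESeq2 called 2 members and 1.88% of the genes it could adjust, and edgeR called 0 members.

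The median log2 fold change of the 44 members, FOXO3 KO minus WT, was 0.049, beside -0.0073 for all genes tested, and 0.039 beside -0.016 without FOXO3 KO 2. Of the members, 28 were fitted higher and 16 lower (48.8% of all genes were fitted higher), and 23 and 21 without FOXO3 KO 2 (47.6%). The FOXO3 KO libraries all exceeded the WT libraries for 9 of the 44 and all fell short of them for 2, where 7.00% and 5.36% of all genes did so. Without FOXO3 KO 2 these numbers were 12 and 2, with 11.0% and 9.23% among all genes. In a bulk sample, fewer cells of a type and less RNA per cell cannot be told apart, and this holds for each difference that follows.

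**Figure D1:**
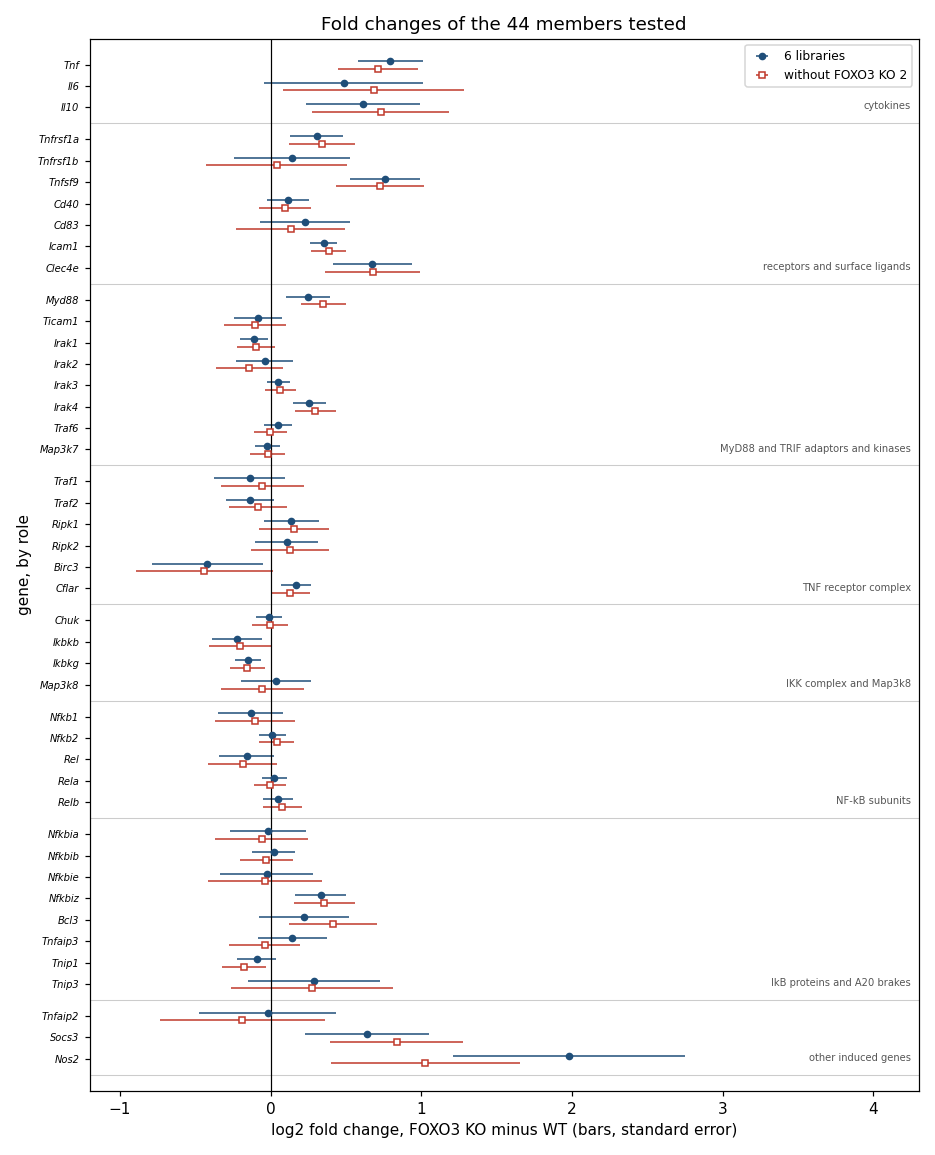
Log2 fold changes (FOXO3 KO minus WT, horizontal axis) of the 44 tested members, grouped by role on the vertical axis. Filled circles are from all 6 libraries, open squares from the 5 without FOXO3 KO 2, and bars show the standard error. The machinery in the middle groups lies near 0, between -0.42 and 0.33 over 6 libraries, and Tnf, Tnfsf9, Clec4e, Socs3 and Nos2 lie to the right.

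Among the cytokines, Tnf, the founding member of the TNF family (chr17:35199381-35202007, minus strand), was 5.01 CPM, 4.59 CPM and 3.41 CPM across WT 1 to 3, against 7.51 CPM, 8.36 CPM and 6.72 CPM across FOXO3 KO 1 to 3. All 3 FOXO3 KO libraries were above all 3 WT libraries, and the highest was the library labelled FOXO3 KO 2, in which Foxo3 was at the WT level. The group means were 4.34 ± 0.830 CPM for WT against 7.53 ± 0.820 CPM for FOXO3 KO (SD, n = 3 each), giving a log2 fold change of 0.79 (standard error 0.22, edgeR adjusted p = 0.714). Without FOXO3 KO 2 it was 0.71 (standard error 0.26, edgeR adjusted p = 0.994). Within the split by Xist, the log2 ratio of mean CPM for Tnf was 0.72 among the 4 libraries low in Xist. It was 0.98 between the 2 that are high, a single library of each group. As the groups do not overlap, any split of the libraries gives the same direction. This also holds for the splits given below for other members that do not overlap.

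The other cytokines were expressed at or near the limit of detection. Il6, a fever and acute phase cytokine (chr5:30013114-30019981, plus strand), was 0.415 CPM, 0.176 CPM and 0.727 CPM across WT 1 to 3, against 0.709 CPM, 0.438 CPM and 0.720 CPM across FOXO3 KO 1 to 3, and the groups overlap. Its log2 fold change was 0.48 (standard error 0.53, edgeR adjusted p = 0.872) and 0.68 (standard error 0.60) without FOXO3 KO 2. Il10, the anti-inflammatory counterpart of these cytokines, was 0.277 CPM, 0.212 CPM and 0.447 CPM across WT 1 to 3, against 0.567 CPM, 0.401 CPM and 0.480 CPM across FOXO3 KO 1 to 3, with a log2 fold change of 0.61 (standard error 0.38, edgeR adjusted p = 0.843) that was 0.73 (standard error 0.45) without FOXO3 KO 2. FOXO3 KO 1 and 3 were above every WT library for Il10, and FOXO3 KO 2 was below WT 3. Il12b, the subunit shared by IL-12 and IL-23, had 3, 1 and 3 counts in WT 1, 2 and 3, and 4, 3 and 13 counts in FOXO3 KO 1, 2 and 3. Each FOXO3 KO library was above each WT library in CPM for Il12b, but most values are at or under 3 counts, so no fold is given. Il23a had 2 counts or fewer in every library. Both were below the filter and were not tested.

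Among receptors and surface molecules, all 7 members were fitted higher in FOXO3 KO in both sets of libraries, where 48.8% and 47.6% of all genes tested were. Both sets hold WT 3. Among the 4 libraries low in Xist, which leave out WT 3 and FOXO3 KO 3, the log2 ratio of mean CPM was -0.11 for Tnfrsf1b. It was above 0 there for the rest of this role. At an unadjusted p under 0.05, 3 of the 7 were higher over 6 libraries and 1 without FOXO3 KO 2, against 4.04% and 3.05% of all genes tested. Tnfsf9, the 4-1BB ligand that costimulates T cells (chr17:57105325-57107757, plus strand), was 2.69 CPM, 2.51 CPM and 1.90 CPM across WT 1 to 3, against 3.65 CPM, 4.20 CPM and 4.17 CPM across FOXO3 KO 1 to 3. Its log2 fold change was 0.76 (standard error 0.23, edgeR adjusted p = 0.737), and 0.73 (standard error 0.29) without FOXO3 KO 2. No FOXO3 KO library overlapped the WT range, as for Tnf. The log2 ratio of Tnfsf9 was 0.60 among the 4 libraries low in Xist and 1.13 between the 2 that are high.

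Icam1, an adhesion molecule that binds leukocyte integrins (chr9:21015985-21028817, plus strand), was 41.4 CPM, 39.9 CPM and 44.8 CPM across WT 1 to 3, against 52.9 CPM, 51.4 CPM and 56.8 CPM across FOXO3 KO 1 to 3. This was the smallest of these differences in size and the one with the least spread, with group means of 42.1 ± 2.51 CPM for WT against 53.7 ± 2.77 CPM for FOXO3 KO (SD, n = 3 each). The log2 fold change of Icam1 was 0.35 (standard error 0.091, edgeR adjusted p = 0.714) and 0.38 (standard error 0.11, edgeR adjusted p = 0.976) without FOXO3 KO 2. Within the Xist split its log2 ratio was 0.36 among the 4 libraries low in Xist and 0.34 between the 2 that are high. GENCODE M21 places a gene on the opposite strand across Icam1, and also across Tnfsf9, and whether the authors' counting used strand is not given in the sources used here.

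Clec4e (Mincle), a receptor for mycobacterial glycolipid and for dying cells (chr6:123281789-123289870, minus strand), was 43.8 CPM, 43.5 CPM and 81.9 CPM across WT 1 to 3, against 90.2 CPM, 90.1 CPM and 89.9 CPM across FOXO3 KO 1 to 3. The 3 FOXO3 KO libraries were nearly equal, and WT 3 was close to them while WT 1 and 2 were far lower. Its log2 fold change was 0.67 (standard error 0.26, edgeR adjusted p = 0.839), and 0.68 (standard error 0.32) without FOXO3 KO 2. Without WT 3 it was 1.06 (standard error 0.070, edgeR adjusted p = 0.0625). Within the Xist split the log2 ratio of Clec4e was 1.05 among the 4 libraries low in Xist and 0.13 between the 2 that are high.

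The TNF receptors and the costimulatory molecules did not reach that threshold. Tnfrsf1a, the main TNF receptor, was 155 CPM, 167 CPM and 109 CPM across WT 1 to 3, against 182 CPM, 169 CPM and 181 CPM across FOXO3 KO 1 to 3, with all FOXO3 KO libraries above all WT libraries and a log2 fold change of 0.30 (standard error 0.17), or 0.34 (standard error 0.22) without FOXO3 KO 2. Tnfrsf1b, the second TNF receptor, was 616 CPM, 639 CPM and 234 CPM across WT 1 to 3, against 544 CPM, 622 CPM and 476 CPM across FOXO3 KO 1 to 3. Its low value in WT 3 set the spread, while WT 1 and 2 were above the FOXO3 KO mean of 547 CPM. The log2 fold change of Tnfrsf1b was 0.14 (standard error 0.38), or 0.039 (standard error 0.47) without FOXO3 KO 2, with WT 3 kept in both. Cd40 and Cd83, which mark antigen-presenting cells that can stimulate T cells, differed by 0.12 for Cd40 (standard error 0.14) and by 0.23 for Cd83 (standard error 0.30) on the log2 scale, the latter becoming 0.13 (standard error 0.36) without FOXO3 KO 2. The edgeR adjusted p of these 4 genes over 6 libraries was between 0.843 and 0.940.

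The 3 remaining output genes are Nos2, Socs3 and Tnfaip2. Nos2, the inducible nitric oxide synthase, was 0.360 CPM, 0.247 CPM and 0.0839 CPM across WT 1 to 3, against 0.496 CPM, 1.82 CPM and 0.450 CPM across FOXO3 KO 1 to 3. All FOXO3 KO libraries were above all WT libraries, but from 3 counts in WT 3 to 50 counts in FOXO3 KO 2, which alone was over 1 CPM. The log2 fold change of Nos2 was 1.98 (standard error 0.77, edgeR adjusted p = 0.839) over 6 libraries, and 1.03 (standard error 0.63, edgeR adjusted p = 0.994) without FOXO3 KO 2. In that same library the summed level of 10 mesothelial cell and fibroblast markers was 517 CPM, the highest of the 6, and the part of those cells in Nos2 was not tested. Socs3, an inhibitor of cytokine receptor signalling, was 33.2 CPM, 25.7 CPM and 68.4 CPM across WT 1 to 3, against 64.8 CPM, 46.7 CPM and 86.6 CPM across FOXO3 KO 1 to 3. WT 3 was above FOXO3 KO 1 and 2 for Socs3, giving a log2 fold change of 0.64 (standard error 0.41, edgeR adjusted p = 0.843), and of 0.84 (standard error 0.44) without FOXO3 KO 2. Without WT 3 that of Socs3 was 1.18 (standard error 0.27, edgeR adjusted p = 0.510). Tnfaip2, a TNF-induced gene, was 394 CPM, 482 CPM and 139 CPM across WT 1 to 3, against 346 CPM, 407 CPM and 249 CPM across FOXO3 KO 1 to 3, with a log2 fold change of -0.020 (standard error 0.46), or -0.19 (standard error 0.55) without FOXO3 KO 2.

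**Figure D2:**
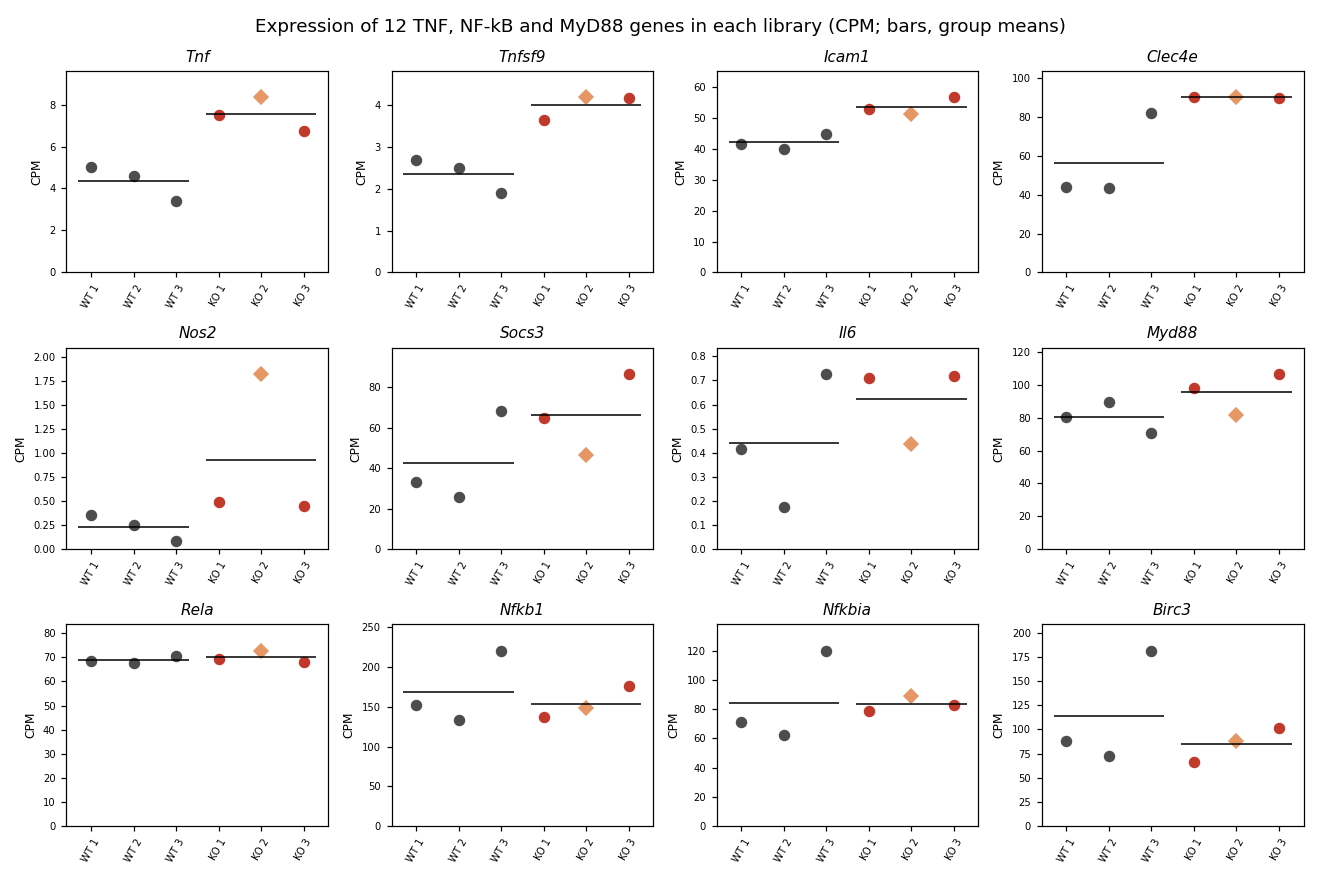
Expression (CPM, vertical axes from 0) of 12 members in each library, with WT in grey, FOXO3 KO 1 and 3 in red, the library labelled FOXO3 KO 2 as an orange diamond, and horizontal bars for the means of all 3 libraries of a group. Tnf, Tnfsf9, Icam1, Clec4e and Nos2 do not overlap between the groups, while Rela is level at 67.5 to 72.7 CPM and WT 3 is the highest library for Nfkb1, Nfkbia and Birc3.

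The 31 members of the signalling machinery (adaptors and kinases, the TNF receptor complex, the IKK complex with Map3k8, NF-kB subunits, and inhibitors) were compared in the same way. None of the 31 reached an unadjusted p under 0.05 over 6 or over 5 libraries. Of all genes tested, 4.04% were higher and 1.65% lower by that rule over 6 libraries, and 3.05% and 1.26% over 5. At such shares few of 31 genes would be called. Both sets hold WT 3, and the count of none is not given for the libraries without it. There 9 of the 44 tested members were higher by that rule, where 6.15% of all genes tested were. The machinery genes Ripk2 and Nfkbia moved up there, with values given below. The smallest edgeR adjusted p of the 31 was 0.839 over 6. Their fitted change was less than 1.2-fold in either direction for 28 of 31 over 6 libraries and for 25 of 31 over 5, where 63.6% and 60.4% of all genes tested were that close. The 31 were at 11.6 CPM or more in every library. All genes tested include genes near the count filter, and no match by level was made. A change that misses the threshold does not show that a gene was the same in both groups, and changes larger than the standard errors given could be missed.

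In the MyD88 and TRIF branch, Myd88, the adaptor of most Toll-like receptors and of the IL-1 receptor, was 80.7 CPM, 89.6 CPM and 70.8 CPM across WT 1 to 3, against 98.2 CPM, 81.3 CPM and 107 CPM across FOXO3 KO 1 to 3. FOXO3 KO 1 and 3 were above all WT libraries, and FOXO3 KO 2 lay within the WT range. The log2 fold change of Myd88 was 0.25 (standard error 0.14, edgeR adjusted p = 0.843) and 0.35 (standard error 0.15, edgeR adjusted p = 0.994) without FOXO3 KO 2. GENCODE M21 places Acaa1a across Myd88 on the opposite strand, and Twf1 across Irak4. Other machinery genes have such overlaps too, among them Irak2, Irak3, Map3k7, Ikbkb, Ripk1, Nfkb2 and Nfkbib. Irak4, the kinase that acts first after Myd88, was 59.7 CPM, 64.4 CPM and 52.1 CPM across WT 1 to 3, against 71.1 CPM, 66.0 CPM and 73.0 CPM across FOXO3 KO 1 to 3, above the WT range in every FOXO3 KO library, with a log2 fold change of 0.26 (standard error 0.11, edgeR adjusted p = 0.839). Irak1, the kinase that Irak4 activates, was 141 CPM, 147 CPM and 155 CPM across WT 1 to 3, against 138 CPM, 134 CPM and 137 CPM across FOXO3 KO 1 to 3, below the WT range in every FOXO3 KO library, but by a log2 fold change of only -0.11 (standard error 0.091). Irak2 (-0.040), Irak3, an inhibitory relative of these kinases (0.050), Ticam1 (-0.086), Traf6 (0.048) and Map3k7 (TAK1, -0.022) had log2 fold changes near 0, with standard errors of at most 0.19. Without FOXO3 KO 2, Irak2 was at -0.14 (standard error 0.22) and Traf6 at -0.0031 (standard error 0.11).

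In the TNF receptor complex, Birc3 (cIAP2), a ubiquitin ligase, was 88.3 CPM, 72.5 CPM and 181 CPM across WT 1 to 3, against 66.1 CPM, 87.8 CPM and 102 CPM across FOXO3 KO 1 to 3. The level in WT 3 was 2.18 times the mean of the other libraries, more than for any other machinery gene. The log2 fold change of Birc3 moved from -0.42 (standard error 0.37) to 0.093 (standard error 0.19) when WT 3 was left out, and was -0.44 (standard error 0.46) without FOXO3 KO 2. Traf1 (-0.14) and Traf2 (-0.14), which link the receptors to ubiquitin ligases, and Ripk1 (0.14), a kinase at the branch between survival and death, had log2 fold changes within 1 standard error of 0. Traf1 was at -0.055 (standard error 0.28) and Traf2 at -0.084 (standard error 0.19) without FOXO3 KO 2. Ripk2, the kinase of the NOD receptors, was 24.2 CPM, 22.8 CPM and 38.2 CPM across WT 1 to 3, against 30.8 CPM, 29.8 CPM and 31.1 CPM across FOXO3 KO 1 to 3, a log2 fold change of 0.11 (standard error 0.21) that became 0.39 (standard error 0.083, edgeR adjusted p = 0.498) without WT 3. Cflar (c-FLIP), which restrains caspase-8, was above the WT range in every FOXO3 KO library, with a log2 fold change of 0.17 (standard error 0.10).

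No member of the IKK complex reached an unadjusted p under 0.05, where 4.04% of all genes tested were higher and 1.65% lower over 6 libraries. The kinases Chuk (IKK alpha) and Ikbkb (IKK beta) differed by -0.011 for Chuk (standard error 0.087) and by -0.22 for Ikbkb (standard error 0.16) on the log2 scale. Ikbkg (NEMO), their scaffold, was 78.4 CPM, 78.9 CPM and 85.0 CPM across WT 1 to 3, against 74.4 CPM, 73.6 CPM and 70.5 CPM across FOXO3 KO 1 to 3, below the WT range in every FOXO3 KO library, with a log2 fold change of -0.15 (standard error 0.086, edgeR adjusted p = 0.843). GENCODE M21 places G6pdx across Ikbkg on the opposite strand. Map3k8 (TPL2), which carries the signal to the ERK pathway, had a log2 fold change of 0.034 (standard error 0.23). Over the 5 libraries, Map3k8 was at -0.055 (standard error 0.28) and Chuk at -0.0035 (standard error 0.12).

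Of the NF-kB subunits, Rela (p65, chr19:5637483-5648130, plus strand) was 68.3 CPM, 67.5 CPM and 70.6 CPM across WT 1 to 3, against 69.2 CPM, 72.7 CPM and 67.9 CPM across FOXO3 KO 1 to 3, and the groups overlap. Its log2 fold change was 0.024 (standard error 0.083, edgeR adjusted p = 0.954), or -0.0034 (standard error 0.11) without FOXO3 KO 2. Nfkb1, the precursor of p50 (chr3:135584655-135691547, minus strand), was 152 CPM, 133 CPM and 220.4 CPM across WT 1 to 3, against 138 CPM, 148 CPM and 176 CPM across FOXO3 KO 1 to 3. WT 3 was the highest, and the log2 fold change of Nfkb1 was -0.13 (standard error 0.21, edgeR adjusted p = 0.904) with it and 0.12 (standard error 0.13) without it. Nfkb2 (0.011) and Relb (0.048), the pair of the non-canonical route, and Rel (-0.16) were likewise within 1 standard error of 0, and without FOXO3 KO 2 Nfkb2 was at 0.039 (standard error 0.11) and Relb at 0.076 (standard error 0.13).

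Among the inhibitors, Nfkbia (IkB alpha, chr12:55489410-55492647, minus strand), which NF-kB itself induces, was 71.0 CPM, 62.5 CPM and 120.1 CPM across WT 1 to 3, against 78.8 CPM, 89.1 CPM and 83.1 CPM across FOXO3 KO 1 to 3. The FOXO3 KO libraries lay between WT 1 and WT 3, giving a log2 fold change of -0.016 (standard error 0.25, edgeR adjusted p = 0.991), or -0.061 (standard error 0.31) without FOXO3 KO 2. Without WT 3 the sign changed, to 0.33 (standard error 0.095, edgeR adjusted p = 0.513). Nfkbiz, an atypical IkB that assists transcription of Il6 and other late genes, was 33.2 CPM, 22.9 CPM and 34.1 CPM across WT 1 to 3, against 36.9 CPM, 36.5 CPM and 39.9 CPM across FOXO3 KO 1 to 3, above the WT range in every FOXO3 KO library, with a log2 fold change of 0.33 (standard error 0.17, edgeR adjusted p = 0.839). Bcl3, a nuclear relative of the IkB proteins, was 0.22 (standard error 0.30) on the same log2 scale, and 0.41 (standard error 0.29) without FOXO3 KO 2. Tnfaip3 (A20), which removes ubiquitin chains and ends the signal, had a log2 fold change of 0.14 (standard error 0.23) whose sign turned without FOXO3 KO 2, to -0.040 (standard error 0.23). Its partners Tnip1 and Tnip3 had -0.092 (standard error 0.13) and 0.29 (standard error 0.44), the latter with only 11.6 CPM in WT 3 and 34.0 CPM or more elsewhere. Nfkbib (0.018) and Nfkbie (-0.027) were within 1 standard error of 0. Without FOXO3 KO 2, Tnip1 was at -0.18 (standard error 0.15) and Nfkbib at -0.029 (standard error 0.18).

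**Figure D3:**
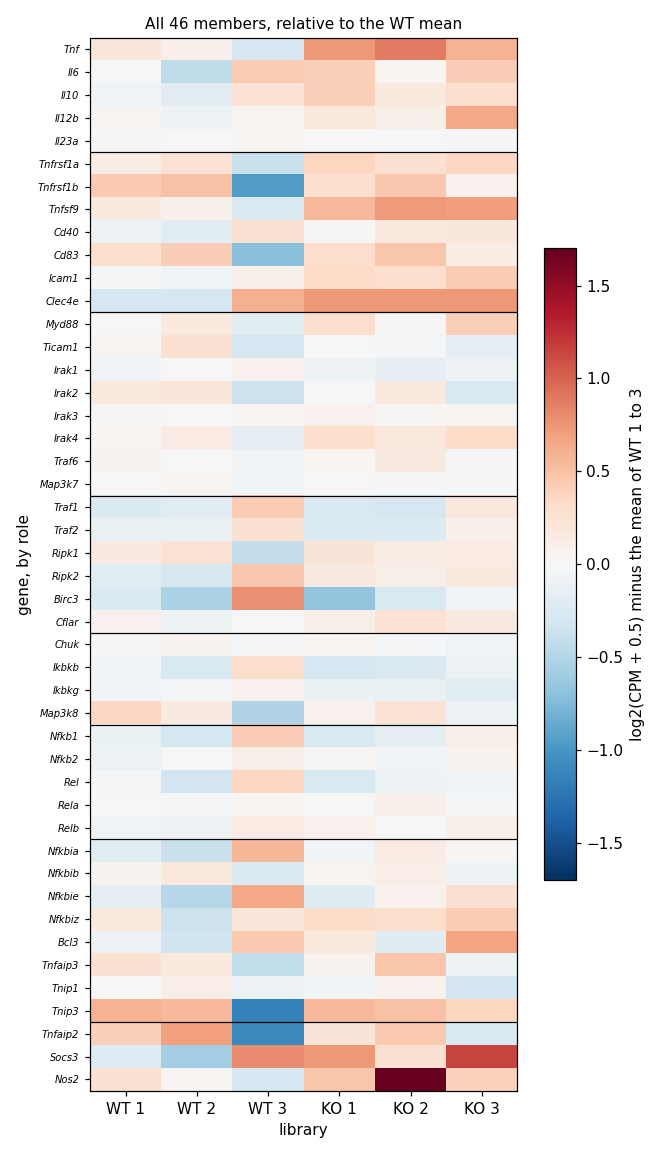
Heatmap of all 46 members (rows, by role, parted by black lines) in the 6 libraries (columns), colored by log2(CPM + 0.5) minus the mean of WT 1 to 3. Red cells in all 3 FOXO3 KO columns are seen for Tnf, Tnfsf9, Icam1, Clec4e and Nos2. They are also seen for other members, among them Tnip3, Nfkbiz, Tnfrsf1a and Socs3. The WT 3 column departs from WT 1 and 2 in both directions, from blue for Tnfrsf1b, Tnip3 and Tnfaip2 to red for Birc3, Nfkbie and Socs3.

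The 9 members with the kappa-B consensus in a promoter window (Il6, Map3k7, Nfkb2, Nfkbia, Nfkbie, Rel, Tnfaip3, Tnip1 and Tnip3) had log2 fold changes between -0.16 and 0.48, 4 higher and 5 lower. None reached an unadjusted p under 0.05 in either set of libraries, where 4.04% of all genes tested were higher and 1.65% lower over 6. Of the 5 members that reached it over 6 libraries, Tnf, Icam1 and Clec4e had a window in the table, and none of these windows held the consensus. Such windows cover only the bases nearest the start, and nothing about NF-kB at these genes follows from an absent match.

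Levels were also compared between members per length of exon, as mean CPM per kb of the joined exons of GENCODE M21. In WT, Tnfrsf1b was the highest at 129.9 CPM per kb, followed by Tnfaip2 (67.9), Cd83 (66.1), Tnfrsf1a (55.4) and Nfkbia (52.5), and the ranges of these 5 over the WT libraries overlap. Among adaptors and subunits, Myd88 was at 31.2 and Rela at 22.4 CPM per kb. The receptors of TNF were thus among the highest members, whereas Tnf itself was at 2.65 CPM per kb in WT and 4.59 in FOXO3 KO. At the low end, Il6 was at 0.181, Nos2 at 0.0522, Il12b at 0.0343 and Il23a at 0.0176 CPM per kb in WT.

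Variation among the libraries was dominated by WT 3, for the members as for other genes. WT 3 was the highest or the lowest of the 6 libraries for 33 of the 44 tested members (15 highest, 18 lowest), and for 37.2% and 37.5% of all genes tested. Members highest in WT 3 included Birc3, Nfkbie, Nfkbia, Nfkb1, Rel, Traf1 and Ikbkb, and those lowest in it included Tnip3, Tnfaip2, Tnfrsf1b and Cd83. The 8 B cell markers summed to 686 CPM, 345 CPM and 3251 CPM across WT 1 to 3, against 128 CPM, 313 CPM and 647 CPM across FOXO3 KO 1 to 3, so WT 3 held the most, and all 8 were fitted lower in FOXO3 KO, 0 of them at an unadjusted p under 0.05. Their part in the members' levels was not tested.

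Other cell type markers were compared beside these values. The 12 macrophage markers summed to 15506 to 20356 CPM in WT and 17160.3 to 19175 CPM in FOXO3 KO, overlapping between the groups. The 14 neutrophil markers summed to 221 CPM, 231 CPM and 139.7 CPM across WT 1 to 3, against 513 CPM, 238 CPM and 433 CPM across FOXO3 KO 1 to 3, with the granule genes Mpo, Elane, Camp and Ngp at 0.247 CPM or less in every library. Ly6g, on the same list, was at 0.120 CPM or less in every library. The mean of S100a9 was 2.11 CPM in WT, with 0.252 CPM in WT 3, and 96.0 CPM in FOXO3 KO. That of S100a8 was 7.21 and 52.0 CPM, that of Cxcr2 was 0.785 and 11.8 CPM, and Mmp8, Mmp9 and Lcn2 were at 2.52 to 40.7 CPM. All 9 tested neutrophil markers were fitted higher in FOXO3 KO, 4 of them at an unadjusted p under 0.05 over 6 libraries and 3 without FOXO3 KO 2. The summed level in FOXO3 KO 2 was near that of WT 1 and 2, and 139 CPM of it was Csf3r alone. S100a8, S100a9, Cxcr2, Csf3r and Lcn2 were above every WT library in FOXO3 KO 2, but S100a8, S100a9 and Cxcr2 were far lower there than in FOXO3 KO 1 and 3. Across FOXO3 KO 1 to 3, S100a9 was 164 CPM, 6.93 CPM and 117 CPM, with at most 5.61 CPM in WT. S100a8 was 83.2 CPM, 12.9 CPM and 59.8 CPM (at most 11.3 CPM in WT), and Cxcr2 was 18.7 CPM, 2.23 CPM and 14.4 CPM (at most 0.886 CPM in WT). In FOXO3 KO 2, Csf3r was 139.4 CPM against 138.9 CPM in WT 2, and Lcn2 was 7.30 CPM against 6.03 CPM. Retnlg, Mmp8, Mmp9 and Ltf were within the WT range there. Mesothelial cell and fibroblast markers (10 genes) summed to 44.7 to 80.4 CPM in WT and 102 to 517 CPM in FOXO3 KO, with all 9 tested markers fitted higher, 8 of them at an unadjusted p under 0.05 in both sets of libraries. T cell (8 genes), dendritic cell (8 genes) and mast cell (6 genes) markers, each highest in WT 3, summed to 45.7 to 139.8 CPM in WT and 47.0 to 65.6 CPM in FOXO3 KO, 50.0 to 173 CPM in WT and 63.0 to 109 CPM in FOXO3 KO, and 127 to 780.3 CPM in WT and 99.9 to 293 CPM in FOXO3 KO. Of the dendritic cell sum in WT 3, 119 CPM was Ccr7 alone. The other 7 dendritic cell markers were all fitted higher in FOXO3 KO, 3 of them at an unadjusted p under 0.05 over 6 libraries (Xcr1, Itgae and Siglech) and 3 without FOXO3 KO 2 (Flt3, Itgae and Siglech). NK cell (5 genes) and eosinophil (4 genes) markers summed to 13.9 to 33.7 CPM in WT and 24.0 to 27.4 CPM in FOXO3 KO, and 12.7 to 55.4 CPM in WT and 32.7 to 77.2 CPM in FOXO3 KO. Over 6 libraries, 10 of 12 macrophage, 1 of 8 T cell, 0 of 6 mast cell, 3 of 5 NK cell and 2 of 2 tested eosinophil markers were fitted higher and the rest lower, 0 of them at an unadjusted p under 0.05. No marker was at 0 counts in all libraries of a group, and the part of these cells in the members' differences was not tested.

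**Figure D4:**
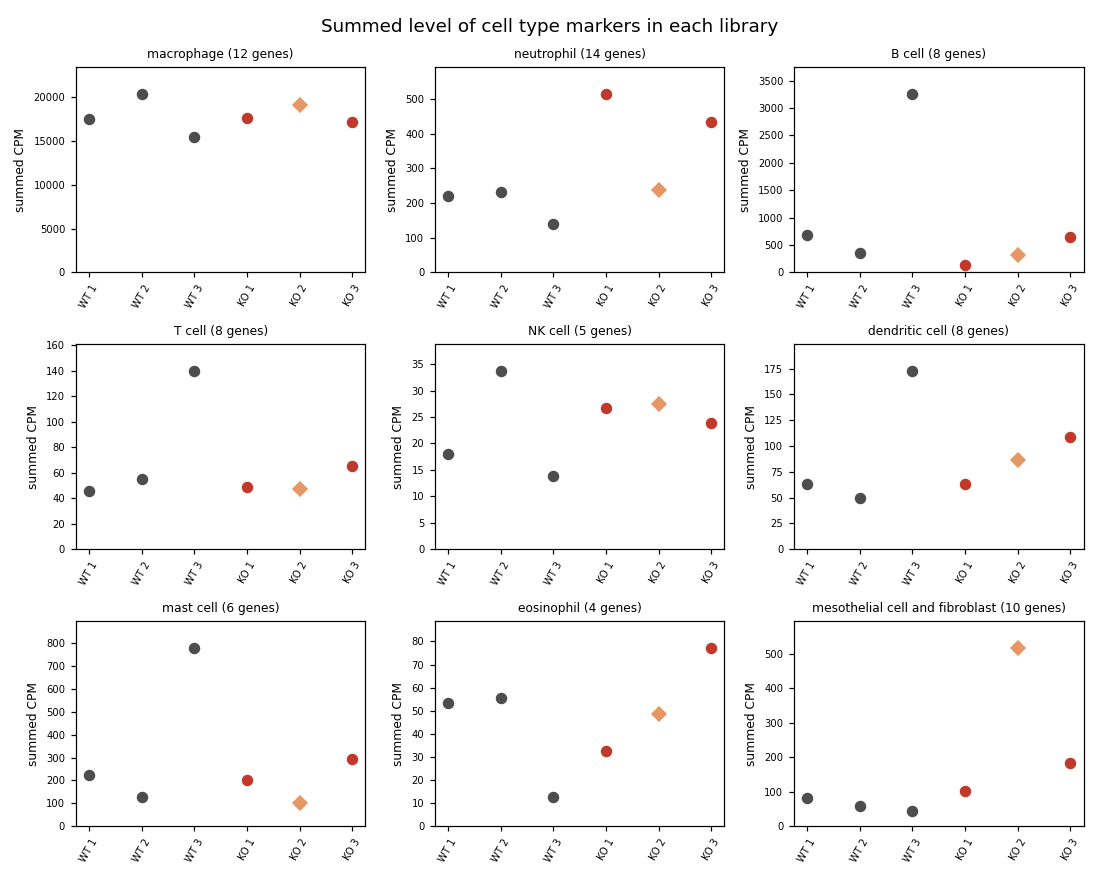
Summed CPM (vertical axes from 0) of the marker genes of 9 cell types in each library, with symbols as in the plot of expression by library. B cell and mast cell markers peak in WT 3 (3251 and 780.3 CPM), neutrophil markers are highest in FOXO3 KO 1 and 3 (513 and 433 CPM), and mesothelial cell and fibroblast markers in the library labelled FOXO3 KO 2.

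Other genes of these pathways were taken from 2 lists, chosen with earlier results of these data known, so their counts are descriptions and not a test. In the list of 37 further receptors, adaptors, ubiquitin enzymes and kinases, all 37 were tested, 1 was higher in FOXO3 KO at an unadjusted p under 0.05 and 0 were lower, in both sets of libraries. This was Ripk3, a kinase of necroptosis, at 33.6 CPM, 28.8 CPM and 33.7 CPM across WT 1 to 3, against 42.3 CPM, 39.1 CPM and 45.7 CPM across FOXO3 KO 1 to 3 (log2 fold change 0.40, standard error 0.11, edgeR adjusted p = 0.714, and 0.46 without FOXO3 KO 2). In the list of 25 further induced genes, 22 were tested over 6 libraries, and 8 were higher and 0 lower at an unadjusted p under 0.05, against 4.04% and 1.65% of all genes tested. Without FOXO3 KO 2 these counts were 5 and 0 of 23, against 3.05% and 1.26%. The median log2 fold change of the induced genes was 0.31 over 6 libraries and 0.33 over 5, beside 0.029 and -0.017 for the first list.

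Of these 8 induced genes, Csf1, the growth factor of macrophages, was 11.2 CPM, 7.62 CPM and 11.4 CPM across WT 1 to 3, against 14.95 CPM, 16.2 CPM and 19.8 CPM across FOXO3 KO 1 to 3, with a log2 fold change of 0.76 (standard error 0.21, edgeR adjusted p = 0.714), or 0.79 (standard error 0.25) without FOXO3 KO 2. Cebpb, a transcription factor of inflammatory genes, was 88.9 CPM, 93.9 CPM and 76.5 CPM across WT 1 to 3, against 117 CPM, 124 CPM and 107 CPM across FOXO3 KO 1 to 3, a log2 fold change of 0.42 (standard error 0.12), or 0.37 (standard error 0.15) without FOXO3 KO 2. Of the 59 genes of both lists tested over 6 libraries, 10 had all FOXO3 KO libraries above all WT libraries and 0 had all below. Among all genes tested, 7.00% and 5.36% did so. Csf1, Cebpb, Marcksl1, Sod2, Gpr84, Vcam1 and Ripk3 are among the 10. They were named for a small p, so their lack of overlap adds little to it. Marcksl1, an actin-binding protein, had means of 28.7 CPM in WT and 47.0 CPM in FOXO3 KO, and Sod2, the mitochondrial superoxide dismutase, had a log2 fold change of 0.32 (standard error 0.10). Gpr84, a receptor for medium-chain fatty acids (1.34, standard error 0.33), was under 1 CPM in every library of both groups. It had 9, 9 and 12 counts across WT 1 to 3, against 16, 21 and 32 counts across FOXO3 KO 1 to 3. Vcam1, an adhesion molecule that mesothelial cells also express (1.33, standard error 0.43), was under 1 CPM in every WT library, against 1.13 CPM, 3.39 CPM and 1.89 CPM across FOXO3 KO 1 to 3. Cebpd, a relative of Cebpb (0.56, standard error 0.23), overlapped between the groups over 6 libraries. So did the remaining gene, Ier3 (0.59, standard error 0.24), which was at 0.39 (standard error 0.24) without FOXO3 KO 2. None passed the FDR. Vcam1 was highest in the library labelled FOXO3 KO 2, where mesothelial cell and fibroblast markers were also highest, and its log2 fold change was 0.83 (standard error 0.35) without that library. The part of those cells in its level was not tested.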

How the data were processed

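RNA-seq counts of 3 WT and 3 FOXO3 KO libraries of intraperitoneal mouse macrophages, read in pairs of 76 bp, were analysed. The authors deposited estimated counts per gene symbol without normalization, which were rounded to whole counts (81.4% of values lay within 0.01 of one). The submitters' processing notes name STAR 2.6.1d, kallisto 0.46.0, DESeq2 and the build mm10 with no roles, and the annotation behind the counts is not given in the sources used here. Tests between groups used edgeR 4.0.16 under R 4.3.3 (filterByExpr, TMM, glmQLFit and glmQLFTest), adjusted across every tested gene by Benjamini-Hochberg, and DESeq2 1.42.0 and limma 3.58.1 (voom) served as alternatives. A standard error is the absolute log2 fold change divided by the root of the F statistic. The members, lists and tests were chosen with earlier results of these data known. Genes given in full were Tnf, Il6, Nfkb1, Rela, Nfkbia and Myd88, members at an unadjusted p under 0.05, and those that did not overlap and differed at least 1.5-fold, with others added to complete a role. Of other pathway genes, the 8 with the smallest unadjusted p were named, and Ier3 was added. Other normalizations, filters, a replicate block, a covariate for the Xist split and each library left out were also tried. Scripts were tested on simulated data, where DESeq2 and the likelihood ratio test made more false calls than their FDR allows. Counts of any 2 libraries differed beyond sampling noise (at least 22.0 times that expected from Poisson counts, by chi-square). Gene positions are from GENCODE M21 (GRCm38). Python 3.11.15 was used for the remaining tables.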

Additional observations from a re-analysis of the deposited data

How the results depend on the processing

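Over 6 libraries, the count of members past an FDR of 0.05 was 3 by DESeq2 without WT 3 (1.25% of all genes it could adjust) and 0 under every other alternative run. The former is an analysis added after the data were seen. Over the 5 libraries without FOXO3 KO 2 it was likewise 0, and 2 by DESeq2 without WT 3 (1.88%). The count of members higher at an unadjusted p under 0.05 over 6 libraries (5) ranged from 2 to 9 as single libraries were left out, and was 9 by DESeq2 without WT 3 (5.65% of all genes). Over 5 libraries (2), it was 0 by the likelihood ratio test (2.79% of all genes), 4 with upper-quartile factors (3.12%), 4 with no filter (1.99%), 7 with a covariate for the Xist split (5.86%), 6 by DESeq2 without WT 3 (4.06%), and 0 to 9 as single libraries were left out. The count of members lower (0 over 5 libraries) was 1 with the Xist covariate (8.66% of all genes), 3 by DESeq2 without WT 3 (3.12%), and 0 to 2 as single libraries were left out. The count of 2 was without WT 3, where 3.39% of all genes were lower. The cause of these moves was not tested.

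The median log2 fold change of the members over 6 libraries (0.049) was 0.098 by limma-voom, 0.026 without normalization factors, 0.099 with the Xist covariate, 0.071 by DESeq2 without WT 3, and 0.039 to 0.088 as single libraries were left out. Over 5 libraries (0.039) it was 0.063 with the Xist covariate, 0.078 by DESeq2 without WT 3, and 0.036 to 0.083 as single libraries were left out. With the replicate block, it was 0.099 over 6 libraries and 0.070 over 5, and the 5 libraries had 5 members higher and 1 lower at an unadjusted p under 0.05, where 6.05% of all genes were higher and 9.22% lower, and 284 genes but 0 members passed the FDR. Correlations of the deviations from group means were 0.26, -0.072 and 0.52 between same-numbered libraries, and -0.51 to 0.55 between libraries of other numbers. With so few libraries behind each mean, these values cannot decide whether the replicate numbers pair the samples.

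Nfkbia, Rela and Nfkb1 changed sign. Over 6 libraries, the log2 fold change of Nfkbia (-0.016) was 0.051 by limma-voom, 0.00094 with no filter, 0.043 with the replicate block, 0.043 with the Xist covariate, 0.33 without WT 3, 0.026 without FOXO3 KO 1 and 0.32 by DESeq2 without WT 3. That of Rela (0.024) was -0.0013 without factors and -0.0034 without FOXO3 KO 2, and that of Nfkb1 (-0.13) was 0.12 without WT 3 and 0.10 by DESeq2 without it. Over 5 libraries, that of Nfkbia (-0.061) was 0.0053 by limma-voom, 0.28 without WT 3 and 0.27 by DESeq2 without it. Rela (-0.0034) was at 0.0056 with no filter, 0.016 without WT 3, 0.028 without FOXO3 KO 3 and 0.011 by DESeq2 without WT 3. Nfkb1 (-0.11) was at 0.13 without WT 3, 0.052 without FOXO3 KO 1 and 0.13 by DESeq2 without WT 3. As single libraries were left out, the range over 6 libraries was -0.19 to 0.33 for Nfkbia, -0.0034 to 0.054 for Rela and -0.27 to 0.12 for Nfkb1, and over 5 it was -0.24 to 0.28, -0.026 to 0.028 and -0.27 to 0.13. Tnf, Tnfsf9, Icam1, Clec4e, Nos2, Il6, Il10 and Myd88 kept their direction under every alternative run. For Tnf, Tnfsf9, Icam1, Clec4e and Nos2, whose groups do not overlap, leaving libraries out could hardly turn the direction. Where 1 FOXO3 KO library is left, it is assumed to vary like the WT libraries. Il12b, Il23a, Nos2, Il6 and Il10, at a few to 50 counts a library, are limited by depth.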
